A study of Mus musculus with 2 samples.

Results

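The cells described here are CD4 T cells of mouse fat and spleen whose transcriptome held both Tmem176a and Tmem176b, a pair of neighbouring genes for membrane proteins. They were taken from single-cell RNA-seq of 2 libraries (experiments 1 and 2), each pooling 8 samples marked with hashtag antibodies, 2 each of BAT, SAT, VAT and spleen (brown, subcutaneous and visceral fat in common usage). All samples came from male wild-type C57BL/6J mice at 8 weeks of age, with no further treatment named. Cells were sorted as TCRb+CD3+CD4+. Fat was digested with collagenase II and spleen only mechanically, so tissue and digestion cannot be told apart. The labels do not say whether a depot was pooled from several mice or which visceral depot was taken. A barcode was kept with at least 500 genes, at least 1000 unique molecules (UMIs) of genes, under 10% mitochondrial UMIs and at least 1 UMI of the T cell receptor constant genes Trbc1 or Trbc2. The members were chosen by their own UMI counts: no UMI of Foxp3, Il1rl1 or Lyz2, and at least 1 UMI each of Tmem176a and Tmem176b. Of 12789 kept barcodes, 158 met this rule. These Tmem176 cells numbered 60 of 3879 in library 1 and 98 of 8910 in library 2.

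Th17 cells are CD4 helper T cells of barrier tissues that can secrete interleukin 17A, 17F and 22. Interleukin 6, interleukin 1 and interleukin 23 drive their formation and upkeep. CCR6, the receptor for the chemokine CCL20, is a surface marker of these cells. TMEM176A and TMEM176B are related to the MS4A family of 4-pass membrane proteins, act as cation channels of intracellular vesicles, and are expressed by Th17 cells as well as by dendritic cells and macrophages.

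Tmem176a lies on chromosome 6 at 48840919 to 48847071 on the plus strand and Tmem176b at 48833818 to 48841496 on the minus strand (GRCm38, GENCODE vM21). The 2 genes point away from each other, and their annotated spans overlap by 578 bases at their starts. Ccr6, whose rise in these cells is described below, lies on chromosome 17 at 8236043 to 8257141 on the plus strand. RefSeq gives Ccr6 2 starts. The 250 bases before the first (chr17:8235793-8236042, plus strand, GRCm38.p6) are shown because they hold a 6-base match to the half-site bound by many nuclear receptors, AGGTCA. The match is in capitals on the opposite strand, as TGACCT, and starts 44 bases before the start. The window before the second start (chr17:8242276-8242525) held no match.
Ccr6 upstream: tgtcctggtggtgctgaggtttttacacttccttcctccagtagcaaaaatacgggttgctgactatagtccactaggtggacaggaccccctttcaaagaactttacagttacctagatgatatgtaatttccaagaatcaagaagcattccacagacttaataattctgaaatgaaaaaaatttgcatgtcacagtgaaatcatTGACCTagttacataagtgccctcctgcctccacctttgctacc
Searched on both strands, AGGTCA occurs in 14.0% of 32851 such RefSeq windows over all genes and in 10.4% of the windows of genes tested here. It occurred in 7 of 63 windows (11.1%) of genes higher in Tmem176 cells and in 10 of 103 (9.71%) of genes lower in them, taken as the genes called with and without the 13 cells described below. A match of this length is a description of the letters, not a binding site.

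The 2 libraries held 29153747 and 43879975 gene UMIs over 4485 and 12239 barcodes. Kept cells had medians of 6121 and 4316.5 UMIs. The 2 files shared 20 barcode sequences, 8 of them kept in both. A single hashtag sample was assigned to 2939 and 6109 kept cells. The hashtags of 2 samples separated weakly: for SAT replicate 1 only 67 of 499 cells, and for BAT replicate 4 only 249 of 493, passed a stricter call.

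Not every cell that met the rule looked like a T cell. In library 1, 8 of the 60 held 96 to 1232 UMIs of 25 vessel and connective tissue genes and 2 more held 580 and 342 UMIs of 21 B cell and myeloid genes. In library 2, 2 of the 98 held 39 and 73 vessel and connective UMIs and 1 held 34 B cell and myeloid UMIs. The other 145 cells held at most 3 such vessel and connective UMIs and at most 19 B cell and myeloid UMIs. Among the 13, 3 had no UMI of the Cd3 genes and the others had 1 to 31. By hashtag, 3 of the 13 were multiplets and 4 were unresolved. None of the 13 had a UMI of Ccr6. One barcode among the 60 cells of library 1 held 3973 of the 4002 UMIs that those 60 had of Hbb-bs, the transcript of a beta-globin of red cells. The label Th17-like is therefore not applied to these 13, which are called cells of other types below. That name refers to the RNA of other types and not to a lack of T cell RNA. Summed over Cd3d, Cd3e, Cd3g, Trac, Trbc1 and Trbc2, the 10 of library 1 held 1 to 55 UMIs (median 17.5). The 3 of library 2 held 3 to 79. Whether some of the 13 barcodes held a T cell together with another cell was not tested. The main results below are given for all 158 cells and for the 145 (50 and 95) left without these 13. For the 145, 7 and 5 Cxcr6 cells past the same limits were also set aside. The genes and limits of this filter were chosen after the values had been seen.

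**Figure D1:**
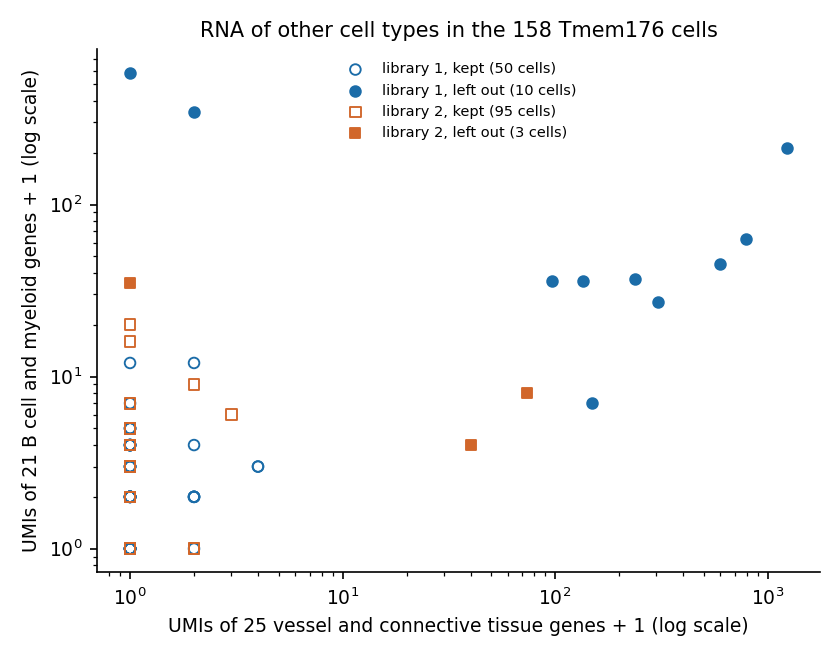
UMIs of vessel and connective tissue genes against UMIs of B cell and myeloid genes in each Tmem176 cell, by library. The 13 cells past the limits of 10 vessel and connective UMIs or 20 B cell and myeloid UMIs are filled. Kept cells reach 3 vessel and connective UMIs, and 11 and 19 B cell and myeloid UMIs in libraries 1 and 2, with no clear gap below the limit of 20 in library 2.

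Each of the 145 remaining cells held at least 13 (library 1) or 9 (library 2) UMIs summed over Cd3d, Cd3e, Cd3g, Trac, Trbc1 and Trbc2. Cd4 had a UMI in 88 of 145 (60.7%), against 1281 of 2360 (54.3%) in the Cxcr6 cells introduced below, and Cd8a had none in all 158. That allows up to 1.90% of cells with a Cd8a UMI and sets no limit on cells that express the gene, since a transcript can go uncounted at this depth. Among 10 CD4 and CD8 T cell markers tested in the 145 cells, Cd8a and Trac were lower than in Cxcr6 cells (edgeR, list median -0.14). Compared with all other Foxp3-zero cells, Thy1 was higher and Cd3d and Trac were lower (edgeR, list median -0.23). Trdc, the constant gene of the gamma-delta receptor, had a UMI in 6 of 145 (4.14%), against 2.31% in cells with Dapl1 (a gene of naive T cells) and neither Cxcr6 nor Tmem176a or Tmem176b. Of the 10 innate lymphoid and NK markers examined, Ncr1 and Klra8 were at 0 in both libraries, and the list summed to 880 and 742 CPM in the 145 cells against 1452 and 1261 CPM in Cxcr6 cells. Against all other Foxp3-zero cells, 2 of 7 of them tested, Arg1 and Id2, were higher in the 145 cells (edgeR, list median 0.46). Of 13 genes of gamma-delta and innate-like T cells, 5 were at 0 among the 145, and the list summed to 74.4 and 148 CPM (UMIs scaled to 1000000 per class and library) in the 2 libraries against 309 and 508 CPM in Cxcr6 cells. Most of the sum in Cxcr6 cells was Xcl1, a gene also counted among the Th1 and cytotoxic genes below.

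The rule genes themselves are a description, since they chose the cells. In library 1 Tmem176a ranged from 1 to 14 UMIs per cell (median 2) and Tmem176b from 1 to 22 (median 3). In library 2 the ranges were 1 to 16 (median 2) and 1 to 19 (median 2). Summed over the cells, Tmem176a was at 263 and 391 CPM and Tmem176b at 338 and 420 CPM. Just inside the rule, 6 and 31 cells had 1 UMI of each gene, and 32 and 46 had at least 2 of each. Just outside it, among cells that met the other conditions, 47 and 86 had only Tmem176a and 62 and 122 only Tmem176b. Cells with both genes but also with Il1rl1, the interleukin 33 receptor gene, numbered 13 and 16. Those with Lyz2, a lysozyme gene of myeloid cells, numbered 19 and 7. Tmem176 cells were deeper than the rest, with medians of 7911 and 6204.5 UMIs against 6050.5 and 4295 in all other Foxp3-zero cells. A deeper cell is more likely to show both genes, so the values below are given as CPM of sums per library.

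The main comparison set them against Cxcr6 cells, Foxp3-zero cells with at least 1 UMI of Cxcr6 (the receptor for CXCL16, found on activated and tissue-resident T cells) and none of either Tmem176 gene. There were 845 of these in library 1 and 1515 in library 2. The 2 classes differed in their mix of tissues. For example, VAT replicates 1 and 4 held 13 and 20 Tmem176 cells with a single hashtag against 144 and 177 Cxcr6 cells. SAT replicates 1 and 4 held 5 and 8 against 211 and 333. Sums per library pool all tissues, so the part of tissue in the class differences was not tested with them. UMIs were summed per library and class and tested with edgeR's quasi-likelihood test with library as a term, which compares 4 sums with 1 residual degree of freedom and borrows its spread from all genes. The p-values therefore measure the spread between 2 libraries and not between mice. Of 10747 genes tested, 285 (2.65%) passed an adjusted p of 0.05, with 177 (1.65%) higher and 108 (1.00%) lower in Tmem176 cells. Without the library term 53 passed. Without the 13 cells of other types, 444 of 10517 (4.22%) passed, with 237 (2.25%) higher and 207 (1.97%) lower.

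The 13 cells carried most of the rises. Of the 177 genes higher in all 158 cells, 56 (31.6%) were also higher in the 145, while 106 of the 108 lower genes (98.1%) were also lower. Fabp4, a fatty acid carrier of adipocytes and capillaries, was at 5058 CPM in library 1 and 141 CPM in library 2, against 34.4 and 8.92 CPM in Cxcr6 cells. Its log2 fold change was 5.82 ± 0.49 (SE) in the 158 cells and -0.53 ± 0.40 in the 145, where it was not called. Apoe, which encodes a lipid carrier of macrophages and stroma, went from 4.11 ± 0.64 to -1.70 ± 0.93, and Ifitm3 from 3.57 ± 0.49 to 0.04 ± 0.42. Sparc and Cd36, genes of stroma and endothelium, fell to 1 and 2 UMIs and were no longer tested. Genes of B cells behaved likewise: Igkc had 298 UMIs in library 1, of which 3 remained. The filter leaves out cells by their UMIs of vessel, connective, B cell and myeloid genes, so falls of such genes follow from its choice. Genes of other cell types are left aside below.

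**Figure D2:**
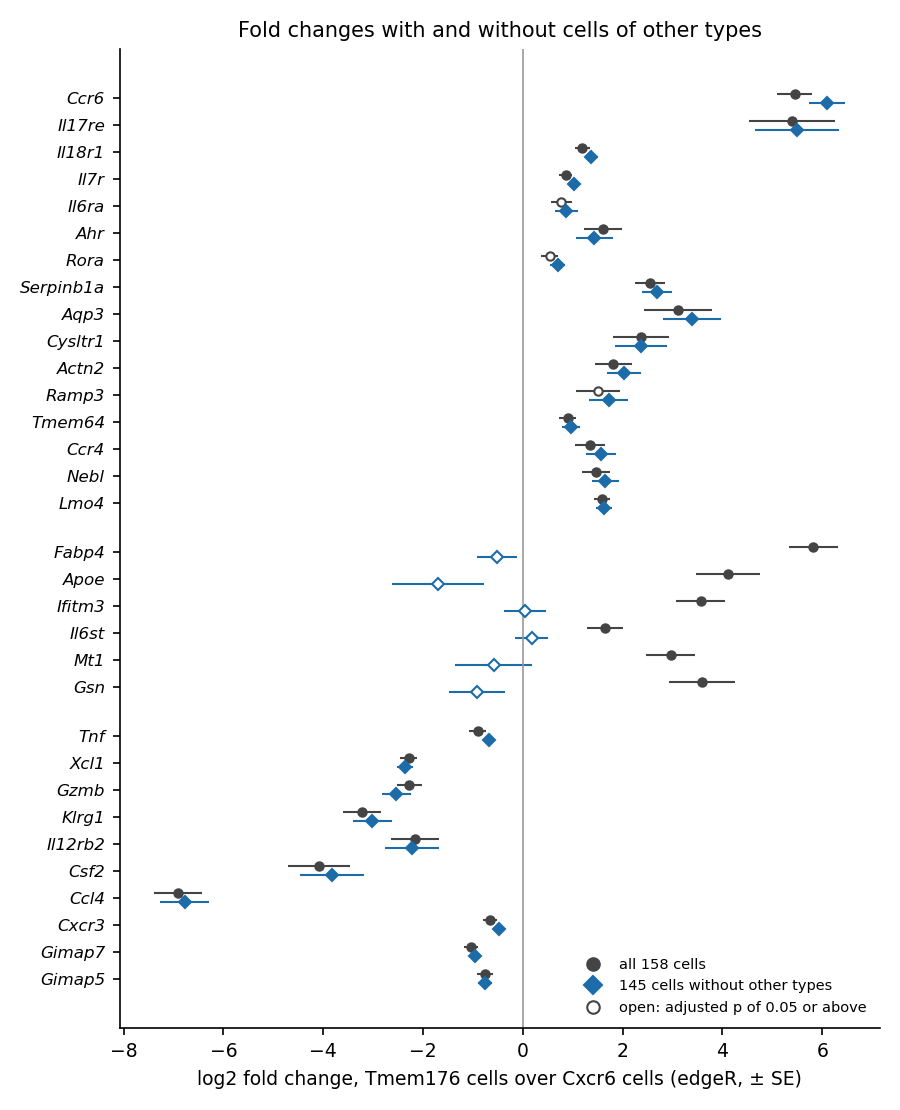
Log2 fold changes of the named genes between Tmem176 cells and Cxcr6 cells with all 158 cells and with the 145, with standard errors. The Th17 genes and the cytotoxic genes keep their place, while genes such as Fabp4 and Apoe move from above 4 to below 0.

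Ccr6 had the clearest rise. It had 42 and 56 UMIs in the Tmem176 cells of libraries 1 and 2, or 61.7 and 80.5 CPM. In Cxcr6 cells it had 6 and 18 UMIs, or 0.944 and 2.33 CPM. The 2 values of the Tmem176 cells both lay far above those of the Cxcr6 cells. The log2 fold change was 5.45 ± 0.35 (edgeR quasi-likelihood test, adjusted p = 1.92e-08) and 6.10 ± 0.36 in the 145 cells, with 0 of the 98 UMIs lost to the filter. Ccr6, Il17re, Serpinb1a, Cpd, Lmo4 and Ccl4 kept their call in each alternative test against Cxcr6 cells that included them.

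Of 12 transcription factors linked to Th17 cells, 2 were higher and 2 lower, with a list median of -0.25 on the log2 scale against 0.01 over all genes. Ahr, the aryl hydrocarbon receptor needed for interleukin 22, was at 39.7 and 18.7 CPM against 9.60 and 9.44 CPM, a log2 fold change of 1.60 ± 0.37 (edgeR adjusted p = 0.0242). This call was lost with DESeq2 and with single-hashtag cells. Rora, which encodes a nuclear receptor, was at 154 and 87.7 CPM against 88.1 and 78.5 CPM. It passed the test in the 145 cells alone (0.70 ± 0.15), and not in the 158 (0.54 ± 0.17, edgeR adjusted p = 0.143). Maf, a factor shared by several effector types, was not called (-0.33 ± 0.14). Bhlhe40, which promotes inflammatory cytokines, was lower at -1.03 ± 0.20 and Runx1 at -0.69 ± 0.17. Batf, Stat3 and Irf4, shared by many activated T cells, had log2 fold changes of -0.12, -0.06 and -0.63 and were not called.

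Receptors for cytokines that act on Th17 cells moved both ways. Of 14 tested, 5 were higher and 1 lower (median 0.52), and of 13 tested in the 145 cells, 4 were higher and 1 lower (median 0.26). Without the library term 2 of the 14 were higher, and after thinning to 1000 UMIs 2 of 10 were. Il17re, a subunit of the interleukin 17C receptor, had 6 and 7 UMIs against 0 and 3 in Cxcr6 cells. Over both libraries its CPM was 44.4 times as high, with a 95% counting interval of 12.2 to 243, and its log2 fold change was 5.39 ± 0.86 (edgeR adjusted p = 0.000917). Il18r1, the interleukin 18 receptor, was at 217 and 214 CPM against 101 and 92.7 CPM, or 1.19 ± 0.15 (edgeR adjusted p = 0.000114), and at 1.37 ± 0.13 in the 145 cells. Il7r, the receptor for the survival cytokine interleukin 7, was at 565 and 663 CPM against 328 and 365 CPM, a log2 fold change of 0.86 ± 0.13.

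Other receptors were sparse or differed between the sets of cells. Il1r1 had 11 and 8 UMIs against 2 and 0 and was called higher (6.34 ± 0.83), but 3 and 7 UMIs were left in the 145 cells and it then fell under the count filter. The 10 UMIs against 2 gave a ratio of 57.9 over both libraries (counting interval 12.3 to 544), and against all other Foxp3-zero cells it was called higher in the 145 (5.41 ± 0.91). Il6st, the shared signalling chain of the interleukin 6 family, had a log2 fold change of 1.65 ± 0.35 in the 158 cells and of 0.18 ± 0.33 in the 145. Il6ra, its partner, missed the threshold in the 158 (0.77 ± 0.21, edgeR adjusted p = 0.0537) and passed it in the 145 (0.87 ± 0.23). Il23r had 1 and 5 UMIs against 0 and 1, a ratio of 61.4 over both libraries with a counting interval of 7.45 to 2825. Il2rb, the interleukin 2 and 15 receptor chain of cytotoxic and Th1 cells, was lower at -1.01 ± 0.14.

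The cytokines that define Th17 cells were close to absent. Of 14 helper cytokines, 7 had enough UMIs to be tested, with none higher and 2 lower (edgeR; 0 higher in the 145 cells as well). Il17a had 4 UMIs in 2 cells of library 1 and none in library 2, against 5 UMIs in 1 of 2360 Cxcr6 cells. Il17f had 2 UMIs in 1 of 158 cells. Il22 had 5 UMIs, 4 of them in 1 cell of library 2, and none in Cxcr6 cells. When 3 counts over both libraries stand for the 0, the ratio is 17.1. That value leaves out the counting error of the 5 UMIs and is not a lower bound. Csf2, the gene of GM-CSF, went the other way with 2 and 0 UMIs against 219 and 129 (ratio 0.0588, counting interval 0.0071 to 0.214). Tnf was at 172 and 99.2 CPM against 268 and 238 CPM, or -0.90 ± 0.17.

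A list of genes reported with Th17 cells for other roles held rises and no falls. Of 13 tested in a list of 18, 6 were higher and none lower in the 158 cells (median 0.90), and 7 in the 145 (median 0.96). With DESeq2 in place of edgeR 1 of the 13 passed (median 0.91), as did 1 without the library term, and 0 of 7 passed after thinning (edgeR, 2 with an unadjusted p below 0.05). Serpinb1a, a protease inhibitor, was at 58.7 and 44.6 CPM against 8.18 and 9.70 CPM, a log2 fold change of 2.55 ± 0.29 (edgeR adjusted p = 3.85e-05). Aqp3, a water and glycerol channel, had 15 and 4 UMIs and a log2 fold change of 3.11 ± 0.67. Cysltr1, a receptor for cysteinyl leukotrienes, was at 13.2 and 17.3 CPM against 1.89 and 4.27 CPM (2.38 ± 0.56), with 5 of its 9 UMIs of library 1 in 1 cell. Actn2, an alpha-actinin, was at 26.4 and 33.1 CPM against 9.91 and 7.50 CPM (1.82 ± 0.37). Ramp1, which with the calcitonin-like receptor binds the neuropeptide CGRP, was higher at 0.73 ± 0.19. Ramp3 had a log2 fold change of 1.51 ± 0.44 (edgeR adjusted p = 0.0859) and was called in the 145 cells at 1.72 ± 0.39. Tmem64 was higher at 0.90 ± 0.17.

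The remaining rises that held in both sets were not in these lists. Lmo4, a LIM-domain adaptor of transcription complexes, was at 178 and 111 CPM against 54.3 and 42.3 CPM (1.59 ± 0.16). Cpd, a carboxypeptidase, had a log2 fold change of 2.82 ± 0.40 in the 158 cells and 2.31 ± 0.42 in the 145. Nebl, an actin-binding nebulin relative, was at 42.6 and 41.7 CPM against 20.6 and 11.5 CPM (1.46 ± 0.28). Fabp5, an epidermal-type fatty acid carrier, kept a smaller rise, from 2.66 ± 0.28 to 1.24 ± 0.22. Plcb4, Pdlim4 and Jaml had log2 fold changes of 1.59, 1.56 and 1.43 in the 145 cells. Ecm1 was higher at 1.65 ± 0.31 there, but 24 of its 30 UMIs of library 2 came from 1 cell. Capg, an actin-capping protein, was at 141 and 151 CPM against 48.9 and 88.8 CPM (1.17 ± 0.18).

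Genes of migration moved both ways, with 5 higher and 6 lower of 24 tested. Apart from Ccr6, Ccr4, a receptor for skin and lung homing, was at 38.2 and 30.2 CPM against 15.4 and 12.2 CPM (1.34 ± 0.30). Genes of recirculating T cells were higher than in Cxcr6 cells: Klf2, a regulator of egress, at 1.04 ± 0.13 and its target S1pr1, the egress receptor, at 0.84 ± 0.15. All Cxcr6 cells had a UMI of Cxcr6 by their choice, while 25 and 41 Tmem176 cells of libraries 1 and 2 had none. The part of this choice in the rises of Klf2 and S1pr1 was not tested. Ccr7, the lymph node homing receptor, was at 70.5 and 92.0 CPM against 44.4 and 60.1 CPM (0.67 ± 0.17, edgeR adjusted p = 0.0389), with 18 of its 48 UMIs of library 1 in 1 cell. Among cells with at least 2 UMIs of each Tmem176 gene it turned to -0.53. Cxcr3, a receptor of Th1 cells, was lower at -0.65 ± 0.14. Itgb1, the beta-1 integrin, was lower at -0.62 ± 0.12 and Rgs1, a residence gene, at -1.08 ± 0.17.

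Against Cxcr6 cells, Th1 and cytotoxic genes held falls and no rises. Of 19 tested, 10 were lower and none higher (median -0.83), and 12 were lower in the 145 cells (median -0.78). Without the library term 1 was lower, and after thinning 5 of 15 were. Those 10 included Tbx21, the Th1 master regulator, and Ifng, its main cytokine. Ccl4, an inflammatory chemokine, had 1 and 0 UMIs in Tmem176 cells against 431 and 923 in Cxcr6 cells, a ratio of 0.00756 over both libraries (counting interval 0.00019 to 0.0422). Xcl1, a chemokine of NK and CD8 T cells, was at 33.8 and 67.6 CPM against 193 and 306 CPM (-2.29 ± 0.18). Gzmb, a granzyme, was at 8.81 and 20.1 CPM against 49.7 and 93.0 CPM (-2.27 ± 0.25). Il12rb2, the inducible interleukin 12 receptor chain, had 3 and 3 UMIs against 126 and 157 (-2.16 ± 0.49). The falls were seen in both libraries.

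Outside that list the largest falls included Ccl1, a CCR8 ligand, with 0 UMIs in both libraries against 173 and 160. It was at least 10.8-fold lower when 3 counts over both libraries stand for the 0. Klrg1, a receptor of terminally differentiated effectors, had 2 and 5 UMIs, each set in 1 cell, against 356 and 329 (-3.23 ± 0.38). Ccdc136, Stk32c, Serpina3f and Arl4d had log2 fold changes from -2.44 to -1.89. Cd160 and Cd200r1, inhibitory or costimulatory surface receptors, were lower at -1.77 ± 0.37 and -1.76 ± 0.31. Id2, a factor of effector and innate lymphocytes, was lower at -0.85 ± 0.12.

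The Gimap genes, small GTPases of lymphocyte survival, lie beside the Tmem176 pair on chromosome 6, from 48647234 to 48770851, and end 62966 bases before Tmem176b. None of the 8 was higher and 4 were lower (median -0.56), with 6 lower in the 145 cells (median -0.45). Gimap7 was at 192 and 213 CPM against 412 and 441 CPM (-1.04 ± 0.14), and Gimap4, Gimap5 and Gimap6 had log2 fold changes of -0.76, -0.76 and -0.56. Of the MS4A relatives, 5 were tested and none was called in the 158 cells with edgeR or DESeq2 (1 had an unadjusted p below 0.05 with each), and Ms4a4b was called at -0.16 in the 145.

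Activation and division genes were also examined. Of 18 immediate early genes, 4 were lower than in Cxcr6 cells (9 of 17 in the 145 cells), among them the orphan receptors Nr4a1 at -0.81 ± 0.19 and Nr4a2 at -1.76 ± 0.43. Compared with all other Foxp3-zero cells, 2 of the 18, Fos and Fosb, were higher and 0 were lower. In the 145 cells Junb was higher there too. None of 10 cell cycle genes was called in the 158 cells with edgeR or DESeq2 (4 and 1 had an unadjusted p below 0.05), and 5 were higher in the 145 with edgeR. Mki67, a marker of division, was at 216 and 77.6 CPM against 140 and 56.8 CPM. In the 145 cells its log2 fold change was 0.81 ± 0.14, and 51 of its 141 UMIs of library 1 were in 1 cell. Naive genes were little changed, with 1 of 12 higher in the 158 cells and 2 in the 145. The Th2 and Tfh lists had no call among 5 and 9 genes with edgeR, where 2 and 3 had an unadjusted p below 0.05, or with DESeq2, where 0 and 0 did. Globin genes, RNA of red cells, were lower in the 145 cells for all 4 tested, and Hbb-bs was at 53.4 and 7.35 CPM there against 69.8 and 345 CPM in Cxcr6 cells. The part of free red cell RNA in that difference was not tested.

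A broader comparison set the Tmem176 cells against all 10947 other Foxp3-zero cells without either Tmem176 gene, which include naive cells. Of 12850 genes, 484 (3.77%) passed, 283 (2.20%) higher and 201 (1.56%) lower, and in the 145 cells 871 of 12463 (6.99%), 408 (3.27%) higher and 463 (3.71%) lower. The balance of directions depended on the scaling. With library size alone in place of TMM factors, 373 genes were higher and 60 were lower. All genes together then had a median of 0.10 on the log2 scale in place of -0.07. Without the library term 3 genes passed. The calls named below with all 158 cells were also made in the 145 cells.

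Of the Th17 lists, 4 of 12 transcription factors were higher and none lower, 3 of 14 cytokine receptors higher and 2 lower, and 6 of 13 other associated genes higher and none lower. Of 8 cytokines tested none was higher in the 158 cells and 1, Ltb, the gene of lymphotoxin beta, was lower (-0.55 ± 0.09). In the 145 cells 2 of the 8, Il2 and Tnfsf11, were higher and Ltb was again lower (edgeR, list median -0.08). The receptors that were lower were Il6ra at -0.82 ± 0.17 and Il21r, the interleukin 21 receptor, at -0.86 ± 0.15, and in the 145 cells Il6st was lower too (-1.29 ± 0.26). Ccr6 had a log2 fold change of 5.85 ± 0.39 (edgeR adjusted p = 0.000687) and Il17re of 6.18 ± 0.84. Maf and Rora, which were not called against Cxcr6 cells with all 158 cells, were higher here at 0.67 ± 0.12 and 1.58 ± 0.16. Ltb4r1, the leukotriene B4 receptor, was at 14.7 and 44.6 CPM against 1.36 and 4.01 CPM (3.28 ± 0.47). Naive genes were lower for 10 of 12 (11 in the 145), and for 9 with library size scaling. Ccr7 was lower at -1.34 ± 0.14 and Dapl1 at -2.01 ± 0.17. Among 26 migration genes tested, 3 were higher and 2 lower, and in the 145 cells 7 were higher and 3 lower. There Itgb1 and Cxcr3 were higher and S1pr1 was lower, the reverse of their calls against Cxcr6 cells. Klrk1 and Ly6c2 were higher among 21 Th1 and cytotoxic genes, and 3 were lower (6 in the 145). Of 13 S100, annexin and galectin genes, linked to memory cells, 10 were higher (all 13 in the 145), with Vim, an intermediate filament gene of effector cells in that list, at 1110 and 1349 CPM against 454 and 488 CPM. Against Cxcr6 cells 0 of these 13 were higher and 1 was lower with edgeR (median 0.04). In the 145 cells 4 were higher and 2 lower than in Cxcr6 cells. Of 10 cell cycle genes, 7 were higher, with Mki67 at 1.73 ± 0.14 and Top2a at 1.71 ± 0.20. After every cell was thinned to 1000 UMIs none of the 10 was called with edgeR (4 had an unadjusted p below 0.05, median 0.41).

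How many cells carried these transcripts was read from the share with a UMI, which also depends on depth. Ccr6 had a UMI in 13 of 60 cells of library 1 (21.7%) and 19 of 98 of library 2 (19.4%). The exact 95% binomial intervals, which cover counting error only, were 12.1% to 34.2% and 12.1% to 28.6%. In Cxcr6 cells the shares were 0.473% and 0.792%, and in the Dapl1 cells, which should lack Ccr6 and had medians of 6475 and 4790 UMIs, 0.183% and 0.253%. After thinning every cell to 1000 UMIs, 7.59% of the 158 cells and 0.169% of Cxcr6 cells had a Ccr6 UMI. Il1r1 had a UMI in 14 of 158 cells and Il17re in 12. Most Tmem176 cells thus had no UMI of Ccr6 at this depth.

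The shares of Ccr6 and Il18r1 rose with the Tmem176 UMIs of a cell. Those UMIs also chose the cells, and cells are not replicates, so the order is a description. In the 145 cells, Ccr6 had a UMI in 1 of 35 cells with 1 UMI of each Tmem176 gene (2.86%) and in 4 of 38 with 2 or more of only 1 of them. It had one in 27 of 72 with at least 2 of each (37.5%), which was 37.0% in library 1 and 37.8% in library 2. Cells with only Tmem176a or only Tmem176b, just outside the rule, had it in 3 of 123 (2.44%) and 5 of 174 (2.87%), filtered in the same way. Il18r1 was found in 12 of 35 (34.3%), 24 of 38 (63.2%) and 60 of 72 (83.3%). Depth moved with this order: in library 2 the median was 4904 UMIs for cells with 1 UMI of each and 6861 for those with at least 2 of each. In library 1 the medians were 5265 and 7812 UMIs, and Ccr6 had a UMI in 0 of 5, 3 of 18 and 10 of 27 cells, against 1 of 30, 1 of 20 and 17 of 45 in library 2. In CPM, which is scaled to depth, Ccr6 was at 0, 26.5 and 135 CPM in library 1 and at 4.57, 7.35 and 166 CPM in library 2. The part of depth in the shares was not tested beyond the thinned values, which for Ccr6 were 0%, 2.63% and 15.3%. For Il18r1 no value scaled to depth is given here.

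**Figure D3:**
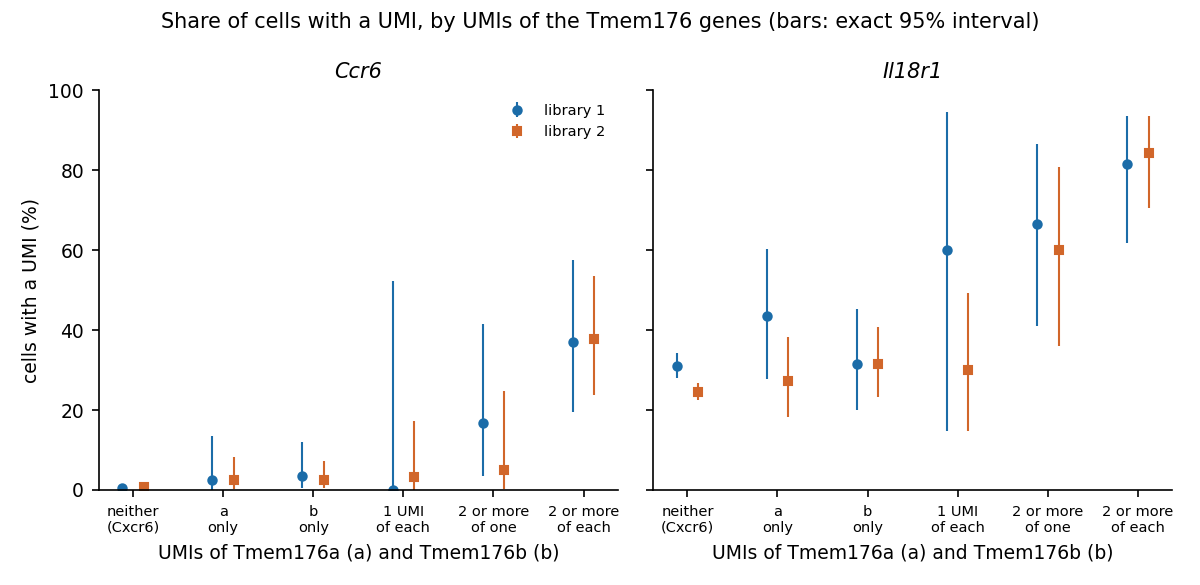
Share of cells with a UMI of Ccr6 and Il18r1, by library and by the number of Tmem176a and Tmem176b UMIs, with exact 95% binomial intervals. Cells of other types are left out, except among the Cxcr6 cells. For Ccr6, cells with at least 2 UMIs of each gene lie at 37.0% and 37.8%, and cells with only Tmem176b at 3.51% or less.

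Cxcr6 split the cells further. It had a UMI in 35 of 60 and 57 of 98 Tmem176 cells (58.3% and 58.2%). Among the 145, Ccr6 had a UMI in 26 of 91 cells with Cxcr6 (28.6%) and 6 of 54 without (11.1%). In library 1 these were 10 of 34 and 3 of 16 cells, and in library 2 they were 16 of 57 and 3 of 38. The cells with Cxcr6 were deeper, with medians of 8703 and 6444 UMIs against 5950.5 and 5860. By CPM the order differed between libraries, with Ccr6 at 60.7 against 167 CPM in library 1 and 114 against 30.7 CPM in library 2. Foxp3-positive cells with both Tmem176 genes were few, 11 in all. Of the 9 left after the same filter, 4 had a Ccr6 UMI, against 32 of 644 (4.97%) of Foxp3-positive cells with neither gene.

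By tissue, the cells were most frequent in VAT. Of 115 Tmem176 cells with a single hashtag, 70 (60.9%) came from VAT, 26 from SAT, 10 from spleen and 9 from BAT. As a share of the kept cells of each hashed sample, VAT was at 3.17%, 3.23%, 3.08% and 3.0% in replicates 1 to 4, a mean of 3.12% ± 0.10 (SD, n = 4). SAT was at 1.00%, 2.44%, 0.992% and 0.936% (1.34% ± 0.73, n = 4). BAT was at 0%, 0.269%, 0.815% and 0.406% (0.372% ± 0.340, n = 4), and the 0 of 437 cells allows up to 0.686%. Spleen was at 0.351%, 0.263%, 0.487% and 0.419% (0.380% ± 0.096, n = 4). The VAT values overlapped with those of no other tissue, and the SAT values with neither BAT nor spleen. BAT and spleen overlapped, and without cells of other types' RNA SAT and BAT overlapped too.

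An exact two-sided permutation test of hashed samples within experiments allows 36 arrangements and no p below 0.0556. VAT exceeded SAT by 1.78 percentage points, BAT by 2.75 and spleen by 2.74, each at that smallest p (exact permutation, adjusted over 6 pairs 0.0667). SAT exceeded BAT by 0.970 points and spleen by 0.962 points at the same p. These differed between experiments 1 and 2, with 1.59 and 0.353 points over BAT and 1.41 and 0.511 points over spleen, and after thinning the exact permutation p was 0.167 for both. BAT and spleen differed by -0.008 points (exact permutation p = 0.889). Within experiments the differences of VAT from SAT were 1.48 and 2.08 points and from spleen 2.89 and 2.59 points. In the cells without other types' RNA the means were 3.06% for VAT, 1.26% for SAT, 0.306% for BAT and 0.382% for spleen, and the exact permutation p of SAT against BAT rose to 0.111. The labels do not say that the 4 samples of a tissue came from separate mice, so the p-values measure only the spread between samples.

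The order depended on the denominator. As a share of Foxp3-zero cells with Cxcr6 or in the class, a population that is itself small in spleen, VAT lay 1.22 points below spleen (-1.22) and SAT 6.91 points below it (-6.91). BAT minus spleen was -6.50 points there. The exact permutation p was 0.0556 for BAT against spleen, 0.5 for VAT and 0.111 for SAT. VAT remained 5.69 points above SAT.

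**Figure D4:**
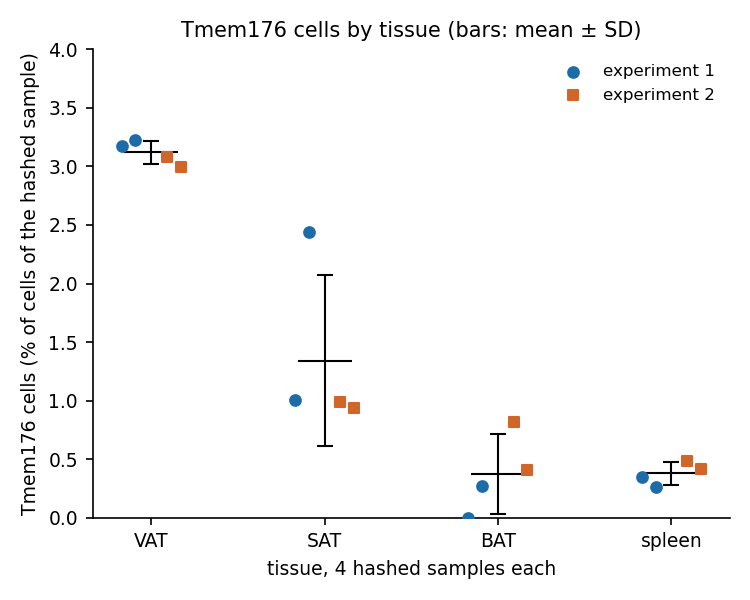
Tmem176 cells as a percent of kept cells in each of the 16 hashed samples, with the tissue means. The 4 VAT samples lie between 3.0% and 3.23%, above every SAT, BAT and spleen sample.

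Between tissues the cells themselves are set side by side only as values. VAT against spleen could not be fitted at the minimum of 10 cells per hashed sample, which no spleen sample reached, and VAT against SAT was not tested. In the 145 cells, Ccr6 had a UMI in 11 of 68 VAT cells (16.2%), 6 of 23 SAT cells (26.1%), 1 of 8 BAT cells and 3 of 10 spleen cells (30.0%, exact interval 6.67% to 65.2%). The exact intervals were 8.36% to 27.1% for VAT, 10.2% to 48.4% for SAT and 0.316% to 52.7% for BAT, and all 4 overlapped. Differences in Ccr6 between tissues were not tested.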

How the data were processed

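The measurements are single-cell gene UMI counts of 2 libraries (10x Genomics 3' chemistry, version 3, per the labels' protocols). The deposited counts are whole UMIs per gene and barcode, made by the authors with Cell Ranger 6.1.0, per the file headers, on mm10 with bcl2fastq and Seurat also named, per the submitters' processing notes. How bcl2fastq and Seurat were set is not stated there. Low-depth barcodes, free RNA and doublets that passed the authors' cell calling remain in the counts, and no doublet caller was run here beyond hashtag multiplets.

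Hashtag counts were assigned to samples by a mixture model at a posterior above 0.95, with the hashtags named in the labels. Cells enter the class comparisons whatever their hashtag call and the tissue shares only with a single call. Members, gene lists and tests were chosen with earlier results of these data known. Counts were summed per library and class and tested with edgeR 4.0.16 (R 4.3.3) by its quasi-likelihood test with library as a term and TMM scaling. Genes passed filterByExpr at its count setting of 10, and p-values were adjusted by Benjamini-Hochberg over all genes, with a threshold of 0.05. The 2 libraries are the study's 2 experiments, so library and experiment are one term. CPM are UMIs scaled to 1000000 per class and library. Values against 0 counts use 3 counts over both libraries and leave out the counting error of the other class. Ratio intervals are exact Poisson intervals at 95%.

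Genes named against Cxcr6 cells are the 12 largest rises and 12 largest falls among genes past the threshold with at least 20 CPM in the higher class of each library and 1 sign in both. Against all other Foxp3-zero cells they are 6 and 6. Receptor, immunoglobulin, mitochondrial, ribosomal and clone gene models and the rule genes were left out, and all genes of the Th17 lists and the 4 largest changes of each other list were added. Of the genes so named, those of other cell types are given only as examples, and some genes are not reported here. Tbx21 and Ifng, and other single genes outside the rule, were chosen after their values had been seen. The same rule in the cells without other types' RNA was added after the values had been seen, as were the single genes given to show what that filter removed. Tested on simulated data, the Cxcr6 comparison recovered 33.3% of 99 genes changed by 1 log2 unit and 76.0% of 96 changed by 2, among 10569 genes. These simulated sums had the same dispersion for all genes and no single cells that hold much of a gene. The recovered shares therefore do not give the power in the real data. Alternatives were library size scaling, DESeq2 1.42.0, no filter on low counts, thinning to 1000 UMIs, single-hashtag cells, stricter classes, other denominators, no library term and sums per hashed sample.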

Additional observations from a re-analysis of the deposited data

Results flagged for a closer look

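Among the shares of Tmem176 cells per hashed sample, SAT replicate 2 stood apart from the other 3 SAT samples. It held 6 of 246 cells, or 2.44%, while the others lay between 0.936% and 1.00%, so that its gap to the nearest sample was larger than Dixon's limit for a group of 4. Without cells carrying RNA of other types its share was 2.51%, again apart from the rest. The exact 95% binomial interval of its 6 cells ran from 0.900% to 5.23%, which covers the other SAT samples. Its partner in library 1, SAT replicate 1, has the weakest hashtag of that library. Chance flags about 1 in 20 such groups.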

How the results depend on the processing

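The paired design rests on the library, which holds both classes in the same run. Without this replicate block 53 genes passed against Cxcr6 cells in place of 285, and 3 against all other Foxp3-zero cells in place of 484. With counts summed by hashed sample and that sample as the replicate block, where 9 samples had at least 5 cells of each class, there were 69 calls among 3506 genes. Only this setting compared the classes within a hashed sample, and so within a tissue. The other counts against Cxcr6 cells were 111 with DESeq2, 643 with every gene that had a count, 48 after thinning to 1000 UMIs, and 80 without any cell holding a marker of another type. They were 444 without the cells of other types, 180 when those were also limited to single hashtags and 176 when limited to Tmem176 cells with Cxcr6. Against all other Foxp3-zero cells the counts were 1218 with every gene that had a count, 216 after thinning, 751 with single-hashtag cells, 308 without cells holding other markers, 871 without cells of other types and 730 without other markers when Cst3 was not used. Of the alternatives, those without cells of other types, that with Cst3 not used and the most probable hashtag state were chosen after seeing the data. The fit of VAT against spleen and its alternatives were not run, because no spleen sample reached 10 cells.

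Results that changed direction were, in the main, genes of other cell types. Values are log2 fold changes against Cxcr6 cells. With Tmem176 cells limited to those with Cxcr6, they were -1.64 for Fabp4, -7.13 for Igfbp7, -2.17 for Apoe, -3.69 for Hba-a1, -3.46 for Hbb-bs, -2.74 for Hbb-bt, -3.21 for Hba-a2, -0.088 for Il6st, -0.26 for Mt1 and -0.94 for Gsn. Without cells of other types they were -0.53 for Fabp4, -7.11 for Igfbp7, -1.70 for Apoe, -3.81 for Hba-a1, -2.84 for Hbb-bs, -3.14 for Hbb-bt, -3.17 for Hba-a2, -0.59 for Mt1 and -0.92 for Gsn. With both limits they were -1.45 for Fabp4, -7.13 for Igfbp7, -1.29 for Apoe, -3.69 for Hba-a1, -3.46 for Hbb-bs, -2.75 for Hbb-bt, -3.22 for Hba-a2, -0.040 for Il6st, -0.18 for Mt1 and -0.91 for Gsn. Without cells of other types and with single hashtags they were -1.02 for Fabp4, -0.077 for Ly6c1 and -1.39 for Gsn. Leaving out library 1, where 10 of the 13 cells of other types lay, or library 2 gave -0.18 and 3.99 for Lpl, -0.13 and 3.60 for Mt1, -1.61 and 5.31 for Igkc, -2.29 and 4.60 for Cd79a, and -0.60 and 5.12 for Gsn. With at least 2 UMIs of each Tmem176 gene they were -0.53 for Ccr7, -2.53 for Igkc and -7.00 for Cd79a. Ly6c1 was at -0.030 without cells holding other markers and Nr4a2 at 0.032 after thinning. Here the cause was not tested. With Tmem176 cells limited to those with Cxcr6, 18 further named genes had a weaker result and 47 had the same one.

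Against all other Foxp3-zero cells, the values without cells of other types were -1.76 for Sparc, -7.94 for Igfbp7, -0.54 for Fabp4, -5.11 for Hba-a1, -4.60 for Hbb-bt, -4.51 for Hba-a2 and -4.35 for Hbb-bs. With single hashtags they were -4.70 for Hba-a1, -4.65 for Hbb-bt, -4.26 for Hba-a2 and -4.14 for Hbb-bs, and with both limits -0.60 for Fabp4, -4.64 for Hba-a1, -5.02 for Hbb-bt, -4.20 for Hba-a2 and -4.07 for Hbb-bs. Fabp4 was at -0.13 without cells holding other markers.

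The tissue differences, in percentage points, kept their sign for VAT against SAT and BAT under all alternatives run. Over Foxp3-zero cells with Cxcr6 or in the class, VAT minus spleen was -1.22, SAT minus spleen -6.91 and SAT minus BAT -0.41. With that denominator BAT minus spleen kept its sign and was far larger, at -6.50. BAT minus spleen, -0.008 in the report, was 0.0078 after thinning, 0.181 without cells holding other markers, 0.092 with the most probable hashtag and 0.157 in experiment 2. Leaving out 1 hashed sample at a time gave -0.155 to 0.117 for BAT minus spleen, 0.604 to 1.12 for SAT minus BAT, 0.596 to 1.10 for SAT minus spleen, 2.62 to 2.89 for VAT minus BAT, 1.64 to 2.14 for VAT minus SAT and 2.70 to 2.78 for VAT minus spleen. Depth limits the rare transcripts most, since a cell with no UMI of a gene may still express it.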
